A study of Mus musculus with 8 samples.

Results

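The iron genes and the metallothioneins of the mouse liver are described here through 10 genes: *Hamp*, *Hamp2*, *Tfrc*, *Tfr2*, *Trf*, *Fth1*, *Slc40a1*, *Slc39a14*, *Mt1* and *Mt2*. They were picked by name with earlier results of these data known, as genes that make or answer to hepcidin, that carry, take up, store or export iron, or that bind zinc and copper, and the rule itself used no measured value. All 10 were present among the 19267 genes of the count table, and all 10 passed the filter on low counts that left 13993 genes for testing.

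Hepcidin, the peptide encoded by *Hamp*, is secreted by hepatocytes and lowers blood iron by making the iron exporter ferroportin (*Slc40a1*) leave the cell surface. Its transcription is raised by iron through bone morphogenetic proteins (BMPs) and SMAD proteins and by inflammation through interleukin 6 and STAT3, and alcohol is known to lower it in the liver. Ferritin, the transferrin receptor and ferroportin are also set by iron regulatory proteins, which bind hairpins called iron-responsive elements in their mRNAs, while metallothioneins are induced by zinc through the factor MTF1 and by glucocorticoids.

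The study asked how an intestinal loss of *Elf4*, which encodes a transcription factor, alters the answer of the liver to alcohol. Livers of male C57BL/6 mice, 9 weeks old when sampled, were measured by RNA sequencing in 4 groups of 2 libraries. In the WT-Control group, wild-type mice received isocaloric maltose dextrin in a Lieber-DeCarli liquid diet, and in the WT-EtOH group the diet held 5% (*w*/*v*) alcohol instead. The *Elf4*-/--Control and *Elf4*-/--EtOH groups received the same diets for the same 21 days. *Elf4*-/- stands for Elf4fl/fl-Villin-Cre, a floxed *Elf4* gene cut by Cre under a promoter that is active in intestinal epithelium and not in hepatocytes. According to the methods of the study the WT mice carried Cre too, so Cre was shared by all 4 groups. The labels do not say whether 2 libraries of a group came from separate mice, and p-values measure the spread between these libraries only.

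Libraries held 6171051 to 9157362 counts. Levels are given as CPM (counts relative to the library total, scaled with TMM factors), and changes as log2 fold changes ± SE from edgeR's quasi-likelihood test over all 8 libraries, with Benjamini-Hochberg adjustment over all 13993 genes. A gene is said to rise or fall where the adjusted p was under 0.05. *Elf4* itself stood at 0.895 to 4.51 CPM in the 8 livers, too low to check the genotype labels, and the deletion was directed at intestinal epithelium. All 10 hepatocyte markers were detected in every library, and their summed level was lower with alcohol without overlap in both genotypes. It was 59730 to 83780 CPM in WT-Control against 37220 to 46070 in WT-EtOH, and 70420 to 78570 in *Elf4*-/--Control against 47530 to 60470 in *Elf4*-/--EtOH. Of the 10, 1 fell in WT and 0 in *Elf4*-/- (1 at an unadjusted p). Their median log2 fold change was −0.55 in WT, with 0 of 10 above 0. In *Elf4*-/- the median was −0.05, with 5 of 10 above 0, so the lower sum there did not hold for the list as a whole. Stellate cell markers went the other way, with sums of 33.5 to 81.1 CPM in WT-Control against 259 to 336 in WT-EtOH and 95.3 to 141 in *Elf4*-/--Control against 211 to 338 in *Elf4*-/--EtOH, and 5 of 8 rose in WT and 0 in *Elf4*-/- (2 at an unadjusted p). Over all genes, 21.6% were called with alcohol in WT and 2.89% in *Elf4*-/- at an adjusted p under 0.05, and 10.8% and 1.71% rose. The share of all genes at an unadjusted p was not counted for the diet contrasts. Such counts for diet therefore have no background beside them. The part of the marker shifts in the results on the members was not tested. *Elf4*-/--EtOH replicate 1 stood apart from all other libraries on the second principal component (12.9% of the variance), and the replicates of its group differed more (SD of the log2 differences over genes 0.681) than those of the other groups (0.354 to 0.504). On the first component (51.6%), which separated the diets, replicate 2 of that group stood at 17.4 and the other 3 EtOH libraries at 52 to 58.2. With replicate 2 left out 6 members were called with alcohol in *Elf4*-/-, and with replicate 1 left out 0 were (1 with all libraries). Values of members that moved with either library are therefore also given without it.

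The control sequences of the 2 hepcidin genes are shown first, because the genes lie 17686 bases apart and yet differed in their levels. Both stretches are read from the 150 bases before the transcription start in RefSeq (build GRCm38.p6, minus strand), at chr7:30944030-30944179 for *Hamp* and at chr7:30924182-30924331 for *Hamp2*. The GENCODE M21 annotation places the start of *Hamp2* further upstream, at 30924681, so that its stretch lies inside the gene as annotated there. Positions given for *Hamp2* hold for the RefSeq start only. Capitals mark GGCGCC, the core of a BMP-responsive element, and TTCNNNGAA, the letters of a STAT site.
Hamp: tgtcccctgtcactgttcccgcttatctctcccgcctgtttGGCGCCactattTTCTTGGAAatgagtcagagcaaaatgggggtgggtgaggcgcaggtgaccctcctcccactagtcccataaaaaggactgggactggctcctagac
Hamp2: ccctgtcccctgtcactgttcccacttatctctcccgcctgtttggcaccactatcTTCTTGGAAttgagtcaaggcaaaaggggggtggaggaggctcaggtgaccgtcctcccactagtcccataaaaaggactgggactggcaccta

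The windows of 250 bases before to 50 bases after the start were 92.9% identical between *Hamp* and *Hamp2*, with 21 differences over 297 aligned bases. *Hamp* held GGCGCC from −109 to −104, counted from 0 at the first transcribed base. The aligned letters of *Hamp2* differed by G4A, with positions counted from 1 at the first G of the *Hamp* motif, so that the motif was not present in that window. Both genes held TTCTTGGAA. Among 32851 promoter windows of the same length, searched on both strands, 11.9% held GGCGCC and 8.3% held TTCNNNGAA, so either match alone is common.

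The metallothionein promoters are shown because *Mt1* and *Mt2* moved together over a wide range. Capitals mark the metal response element core, TGCACNC or TGCGCNC, which is the binding site of MTF1, and in *Mt2* the last 2 cores are read on the opposite strand. The stretches run from 230 bases before the start to 29 after it on the plus strand of GRCm38.p6 in RefSeq, at chr8:94178859-94179118 for *Mt1* and chr8:94172388-94172647 for *Mt2*. In GENCODE M21 *Mt2* starts at 94172664, past the end of its stretch.
Mt1: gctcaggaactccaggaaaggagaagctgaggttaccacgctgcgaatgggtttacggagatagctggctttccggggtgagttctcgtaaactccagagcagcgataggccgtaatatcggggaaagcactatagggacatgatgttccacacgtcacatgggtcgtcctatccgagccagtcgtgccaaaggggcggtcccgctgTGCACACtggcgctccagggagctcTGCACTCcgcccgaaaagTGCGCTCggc
Mt2: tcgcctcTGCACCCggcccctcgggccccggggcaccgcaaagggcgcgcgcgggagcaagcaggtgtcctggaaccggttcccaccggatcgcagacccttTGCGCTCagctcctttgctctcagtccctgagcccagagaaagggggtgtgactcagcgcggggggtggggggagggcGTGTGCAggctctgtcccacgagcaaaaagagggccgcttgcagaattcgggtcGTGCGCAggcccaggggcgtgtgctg

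*Mt1* held 3 cores and *Mt2* held 4, against 25.7% of all windows with at least 1 and 0.517% with 4 or more. The *Mt1* and *Mt2* windows were 55.7% identical, and neither held GGCGCC or TTCNNNGAA. Of the 10 genes, 7 had promoter windows in the table used, and *Tfrc* was the other gene with GGCGCC and with metal response element cores.

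The hairpins that iron regulatory proteins bind were looked for as an unpaired C and a CAGTGN loop on a stem of 5 upper pairs and at least 3 lower pairs, G-T pairs included, in transcripts of the GENCODE M21 annotation (GRCm38). In 5′ untranslated regions such a hairpin was found in 7 of 20779 genes (0.0337%), and *Fth1* and *Slc40a1* were 2 of them. In 3′ untranslated regions it was found in 33 of 21774 genes (0.152%), and *Tfrc* held 4. The other 7 of the 10 genes held none. One hairpin of each kind is shown, with the loop in capitals.
Fth1 (5′ untranslated region): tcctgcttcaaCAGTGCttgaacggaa
Slc40a1 (5′ untranslated region): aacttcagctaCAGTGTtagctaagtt
Tfrc (3′ untranslated region, first of 4): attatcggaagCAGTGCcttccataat

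The 3 genes that held these hairpins were *Tfrc*, *Fth1* and *Slc40a1*. They were also the 3 members that rose with alcohol when the diet effect was averaged over genotypes. In that contrast 28.0% of all genes were called in either direction, so a call there was common. The part of the hairpins in these rises was not tested. The hairpins act on translation or on the stability of an mRNA, and neither was measured. In the liver mRNA measured here, *Fth1* and *Slc40a1* rose in WT and *Tfrc* rose in *Elf4*-/-. *Hamp*, *Mt1* and *Mt2* had the widest gaps between replicates, and none of them passed the test in any of the 6 contrasts. No member differed between genotypes at an adjusted p under 0.05.

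**Figure D1:**
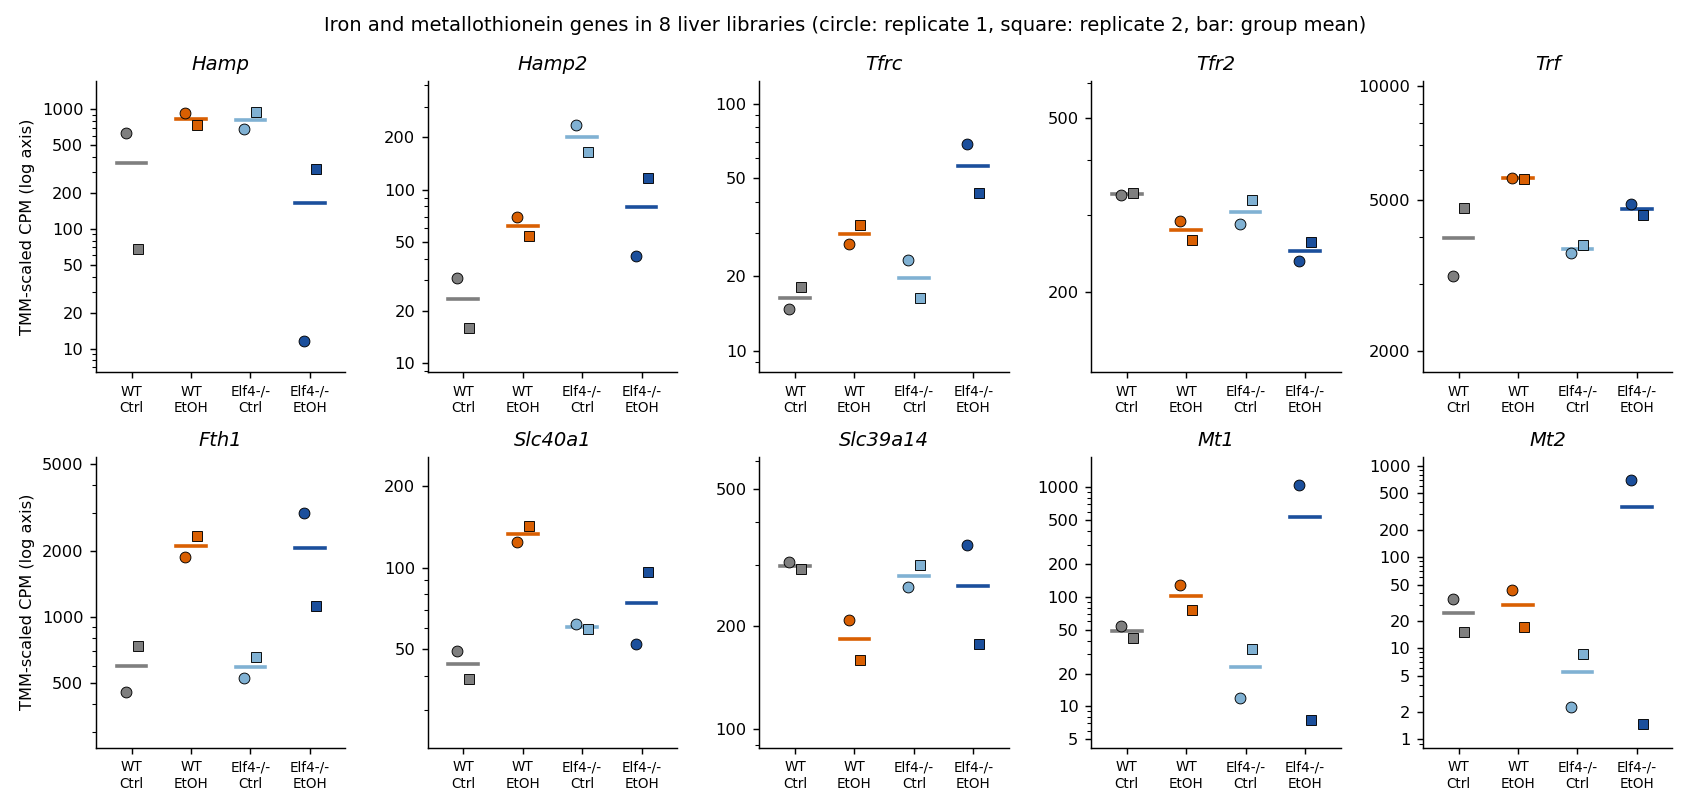
TMM-scaled CPM (log axis, with its own range in each panel) of the 10 genes in the 8 libraries, with circles for replicate 1, squares for replicate 2 and a bar at each group mean. *Fth1* was higher in all 4 EtOH libraries than in all 4 Control libraries, whereas *Hamp*, *Mt1* and *Mt2* spread over a wide range within *Elf4*-/--EtOH.

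*Hamp* (chromosome 7, 30942368 to 30944032, minus strand) is the hepcidin gene of the liver. It stood at 636.0 and 68.3 CPM in WT-Control against 927 and 739 in WT-EtOH, and at 685 and 955 in *Elf4*-/--Control against 11.5 and 318 in *Elf4*-/--EtOH. Its lowest library was *Elf4*-/--EtOH replicate 1, followed by WT-Control replicate 2, and the other 6 lay between 318 and 955 CPM. WT-EtOH did not overlap WT-Control and lay above it, while *Elf4*-/--EtOH did not overlap *Elf4*-/--Control and lay below it.

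The log2 fold change of *Hamp* with alcohol was 1.24 ± 1.15 in WT (edgeR quasi-likelihood test, adjusted p = 0.467) and −2.31 ± 1.19 in *Elf4*-/- (adjusted p = 0.294). The 95% intervals ran from −1.33 to 3.81 and from −4.97 to 0.34. The genotype difference was −2.34 ± 1.19 under EtOH (edgeR, adjusted p = 0.533) and 1.22 ± 1.15 under control diet (edgeR, adjusted p = 0.884). The diet effect of *Elf4*-/- less that of WT, the interaction, was −3.56 ± 1.66 (edgeR, adjusted p = 0.51). These values moved with single libraries. In WT the change was 0.39 without WT-Control replicate 2 and 3.61 without WT-Control replicate 1, and neither passed the test. For *Elf4*-/- the change was −1.37 when *Elf4*-/--EtOH replicate 1 was left out, and it was −6.17 and passed when replicate 2 was, as did the genotype difference under EtOH (−6.19) and the interaction (−7.4), which were −1.38 and −2.61 without replicate 1. Over all alternatives tried, the adjusted p of the change in *Elf4*-/- ran from 0.00747 to 0.599. Averaged over genotypes the change was −0.54 and not past the threshold, and it was 0.65 without WT-Control replicate 1 and −2.48, past the threshold, without *Elf4*-/--EtOH replicate 2. The replicates of *Hamp* differed 9.32-fold in WT-Control and 27.7-fold in *Elf4*-/--EtOH, and 0.0745% and 0.117% of 9398 genes reached such gaps in log2 CPM in the same groups.

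*Hamp2* (chromosome 7, 30922372 to 30924681, minus strand) is a duplicate of the hepcidin gene whose product is not known to act on ferroportin as hepcidin does. It stood at 31.1 and 16.01 CPM in WT-Control against 69.7 and 53.8 in WT-EtOH, and at 235 and 165 in *Elf4*-/--Control against 41.4 and 117 in *Elf4*-/--EtOH. WT-Control was the lowest group and *Elf4*-/--Control the highest, with no overlap of either with any other group. Under control diet the log2 fold change of *Elf4*-/- against WT was 3.09 ± 0.48 (95% interval 2.01 to 4.17), which did not pass over all genes (edgeR, unadjusted p = 8.02e-05, adjusted p = 0.112). DESeq2 called it (adjusted p = 6.78e-10), as did edgeR without a filter, on the 4 libraries compared, and without either *Elf4*-/--EtOH library, and the adjusted p over all alternatives ran from 6.78e-10 to 0.637.

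With alcohol *Hamp2* changed by 1.39 ± 0.46 in WT (edgeR, adjusted p = 0.0576) and by −1.33 ± 0.45 in *Elf4*-/- (edgeR, adjusted p = 0.127). The interaction was −2.72 ± 0.64, with an adjusted p of 0.268 in edgeR and 0.00116 in DESeq2, and it passed in edgeR when *Elf4*-/--EtOH replicate 2 was left out (−3.67), against −2.16 without replicate 1. Over all alternatives the adjusted p of the interaction ran from 0.00116 to 0.829. DESeq2 also called the diet change in WT (1.38) and in *Elf4*-/- (−1.34). In edgeR the change in *Elf4*-/- was −0.77 when *Elf4*-/--EtOH replicate 1 was left out and −2.29, past the threshold (adjusted p = 0.00424), when replicate 2 was. The change in WT ran from 0.99 to 1.94 over the alternatives, and it passed in edgeR with library totals, without a filter, on the 4 WT libraries alone and without either *Elf4*-/--EtOH library. Under EtOH the genotype difference was 0.36 ± 0.44 (edgeR, adjusted p = 0.835), and it was 0.93 without *Elf4*-/--EtOH replicate 1 and turned to −0.58 without replicate 2.

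*Hamp* therefore did not keep a fixed proportion to *Hamp2*. For each *Hamp2* count there were 20.4 and 4.26 *Hamp* counts in WT-Control, against 13.3 and 13.7 with alcohol. The *Elf4*-/--Control libraries had 2.92 and 5.78 *Hamp* counts for each, against 0.277 and 2.71 in *Elf4*-/--EtOH. The WT-EtOH libraries were nearly equal, and *Elf4*-/--EtOH replicate 1 was the only library with fewer *Hamp* than *Hamp2* counts (72 against 260). The share of reads that could have been assigned to either gene is not known, since the counting of reads with several matches was not stated.

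*Hamp2* shares 89 exon bases with *Gm44662*, a long non-coding RNA gene on the opposite strand, which was chosen for description after its values were seen. *Gm44662* had 241 and 86 counts in WT-Control against 580 and 538 in WT-EtOH, and 2198 and 1105 in *Elf4*-/--Control against 313 and 895 in *Elf4*-/--EtOH. *Hamp2* had 167 and 87, 551 and 528, 2292 and 1108, and 260 and 883 counts in the same order. The *Hamp2* count was 0.693 and 0.831 times the *Gm44662* count in WT-Control replicate 1 and *Elf4*-/--EtOH replicate 1, and 0.95 to 1.04 times in the other 6 libraries. Whether the counting used strand was not stated, so the reads of the 2 genes cannot be told apart, and every value of *Hamp2* carries this limit.

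**Figure D2:**
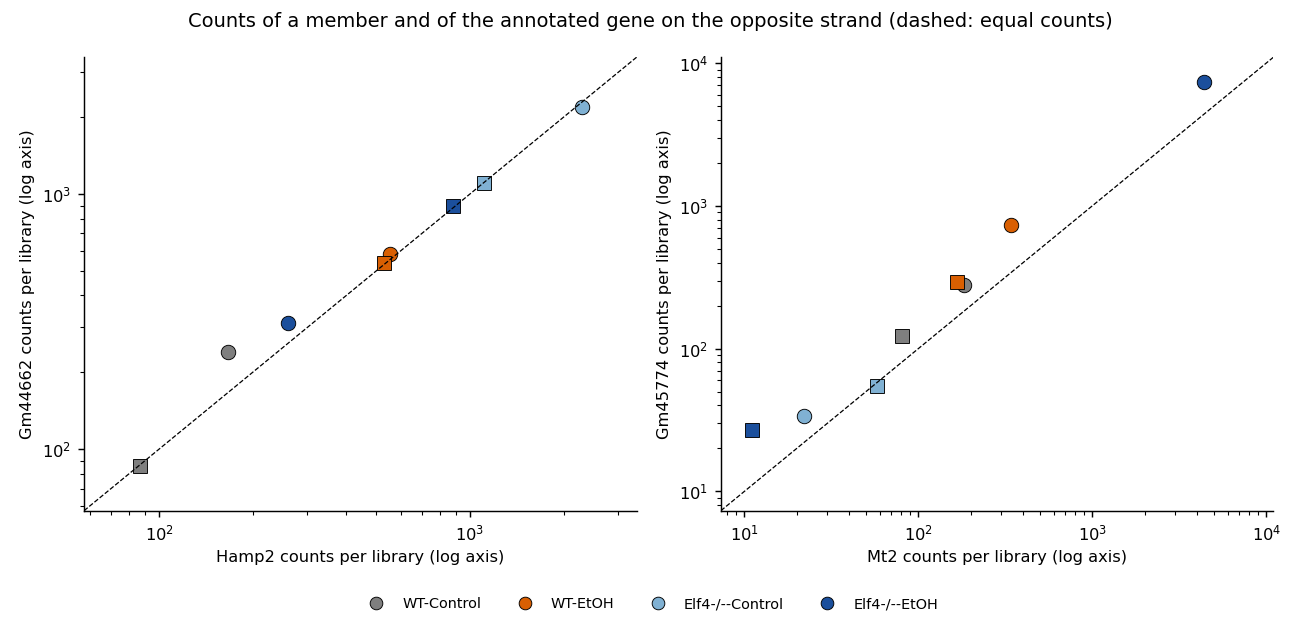
Counts per library (both axes log) of *Hamp2* and *Gm44662* (left) and of *Mt2* and *Gm45774* (right), with circles for replicate 1, squares for replicate 2, colours for the 4 groups and a dashed line at equal counts. *Hamp2* and *Gm44662* lay near the line in all 8 libraries, and *Gm45774* was above *Mt2* in 7 of 8.

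*Tfrc* (chromosome 16, 32608920 to 32632794, plus strand) encodes transferrin receptor 1, which takes iron-loaded transferrin into cells. It stood at 14.7 and 18.0 CPM in WT-Control against 27.1 and 32.2 in WT-EtOH, and at 23.2 and 16.3 in *Elf4*-/--Control against 68.5 and 43.3 in *Elf4*-/--EtOH. The 4 EtOH libraries were all above the 4 Control libraries, and both *Elf4*-/--EtOH libraries were above both WT-EtOH libraries.

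*Tfrc* rose with alcohol in *Elf4*-/- by 1.49 ± 0.27 (edgeR, adjusted p = 0.0271), a 2.82-fold change. In WT the change was 0.86 ± 0.28 and narrowly missed the threshold (edgeR, adjusted p = 0.0519). Averaged over genotypes *Tfrc* rose by 1.17 ± 0.19 (edgeR, adjusted p = 0.00246), and this call held with each library left out. The call in *Elf4*-/- was lost without *Elf4*-/--Control replicate 1 (1.77), *Elf4*-/--Control replicate 2 (1.27), *Elf4*-/--EtOH replicate 1 (1.12) or either WT-EtOH library (1.48 for both), with an adjusted p between 0.000467 and 0.231 over all alternatives. The change in WT was called in several alternatives, robust edgeR among them, with adjusted p values from 0.0103 to 0.25. The genotype difference under EtOH was 0.91 ± 0.26 (edgeR, adjusted p = 0.262), and it passed at 1.2 when the fit left out *Elf4*-/--EtOH replicate 2 and was 0.55 without replicate 1. The diet effects of the genotypes were not shown to differ, with an interaction of 0.64 ± 0.38 (95% interval −0.22 to 1.49).

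*Tfr2* (chromosome 5, 137569840 to 137587481, plus strand) encodes transferrin receptor 2, which serves hepatocytes as a sensor of iron-loaded transferrin upstream of hepcidin. It stood at 332 and 337 CPM in WT-Control against 290.4 and 262 in WT-EtOH, and at 286 and 324 in *Elf4*-/--Control against 236 and 259.9 in *Elf4*-/--EtOH. The EtOH libraries were below the Control libraries in each genotype with no overlap, but by a small margin. The log2 fold change was −0.28 ± 0.21 in WT (edgeR, adjusted p = 0.359) and −0.30 ± 0.21 in *Elf4*-/- (edgeR, adjusted p = 0.435). With scaling by library totals alone the value in WT was 0.15, since this scaling raised the median of all genes in that contrast by 0.43.

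*Trf* (chromosome 9, 103204001 to 103230444, minus strand) encodes transferrin, the iron carrier of plasma that hepatocytes secrete. It stood at 3159 and 4774 CPM in WT-Control against 5739 and 5681 in WT-EtOH, and at 3630 and 3799 in *Elf4*-/--Control against 4886 and 4573 in *Elf4*-/--EtOH. The EtOH libraries were above the Control libraries within each genotype. Neither change passed the test, at 0.53 ± 0.30 in WT (edgeR, adjusted p = 0.236) and 0.35 ± 0.30 in *Elf4*-/- (edgeR, adjusted p = 0.541). An annotated gene on the same strand, *Gm20425*, shares 2108 exon bases with *Trf* and was absent from the count table.

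*Fth1* (chromosome 19, 9980598 to 9985098, plus strand) encodes the heavy chain of ferritin, which oxidises and stores iron in the cytosol. It stood at 457 and 737 CPM in WT-Control against 1880 and 2341 in WT-EtOH, and at 529 and 661 in *Elf4*-/--Control against 2993 and 1126 in *Elf4*-/--EtOH. All 4 EtOH libraries were above all 4 Control libraries, and the highest and the lowest EtOH library were both *Elf4*-/-.

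*Fth1* rose with alcohol in WT by 1.82 ± 0.44, a 3.54-fold change (edgeR, adjusted p = 0.0182). The change in *Elf4*-/- was 1.79 ± 0.44 (95% interval 0.81 to 2.77) and missed the threshold in edgeR (adjusted p = 0.0599) but passed in DESeq2 (adjusted p = 0.000161), with 0.000161 to 0.294 over all alternatives. The interaction was −0.03 ± 0.60 (95% interval −1.38 to 1.32). Averaged over genotypes *Fth1* rose by 1.81 ± 0.31 (edgeR, adjusted p = 0.00305), which held with each library left out. The call in WT was lost without WT-Control replicate 1 (1.51), WT-EtOH replicate 1 (1.97) or WT-EtOH replicate 2 (1.65), with adjusted p values from 3.4e-05 to 0.116 over all alternatives. The change in *Elf4*-/- was 0.92 when *Elf4*-/--EtOH replicate 1 was left out, and 2.31, past the threshold, when replicate 2 was.

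*Slc40a1* (chromosome 1, 45908068 to 45926523, minus strand) encodes ferroportin, the exporter through which iron leaves cells, in the liver chiefly macrophages and hepatocytes. It stood at 49.2 and 39.0 CPM in WT-Control against 124 and 143 in WT-EtOH, and at 62.0 and 59.5 in *Elf4*-/--Control against 52.3 and 96.7 in *Elf4*-/--EtOH. Both WT-EtOH libraries were above all 6 other libraries, and *Elf4*-/--EtOH had 1 library on each side of *Elf4*-/--Control.

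*Slc40a1* rose with alcohol in WT by 1.60 ± 0.28, a 3.03-fold change (edgeR, adjusted p = 0.00535). This call held with each library left out, with values from 1.44 to 1.77. The change in *Elf4*-/- was 0.30 ± 0.27 (95% interval −0.32 to 0.91, edgeR, adjusted p = 0.572), and it was 0.67 without *Elf4*-/--EtOH replicate 1 and turned to −0.24 without replicate 2. Averaged over genotypes *Slc40a1* rose by 0.95 ± 0.20 (edgeR, adjusted p = 0.00684), which held with each library left out. The interaction was −1.30 ± 0.39 and did not pass (edgeR, unadjusted p = 0.00744, adjusted p = 0.316), nor did the genotype difference under EtOH, −0.84 ± 0.27 (edgeR, adjusted p = 0.313). Both passed without *Elf4*-/--EtOH replicate 2 (−1.83 and −1.36), neither did without replicate 1 (−0.93 and −0.46), and over all alternatives the adjusted p ran from 0.0198 to 0.847 and from 0.0151 to 0.921.

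Markers of Kupffer cells, the liver macrophages that recycle iron from red blood cells, were highest in WT-EtOH, as *Slc40a1* was. Of 12 such markers, 11 rose with alcohol in WT and 2 in *Elf4*-/-, against 10.8% and 1.71% of all genes. Under EtOH edgeR called 2 of the 12 lower in *Elf4*-/- than in WT, where 0.143% of all genes were called. At an unadjusted p 11 of the 12 passed there, against 10.5% of all genes, and their median was −1.35. The summed level of the 12 markers was 236 to 305 CPM in WT-Control against 756 to 853 in WT-EtOH, and 221 to 228 CPM in *Elf4*-/--Control against 309 to 338 in *Elf4*-/--EtOH. None of the 12 was at 0 in any library. In other groups the markers and *Slc40a1* went apart. Under control diet *Slc40a1* was higher in both *Elf4*-/- libraries than in both WT libraries, while the marker sum was lower. In *Elf4*-/--EtOH, replicate 1 had the higher marker sum (338 against 309 CPM) and the lower *Slc40a1* (52.3 against 96.7 CPM). The part of Kupffer cells in the *Slc40a1* result was not tested, and in whole liver more cells of a type and more RNA per cell cannot be told apart.

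**Figure D3:**
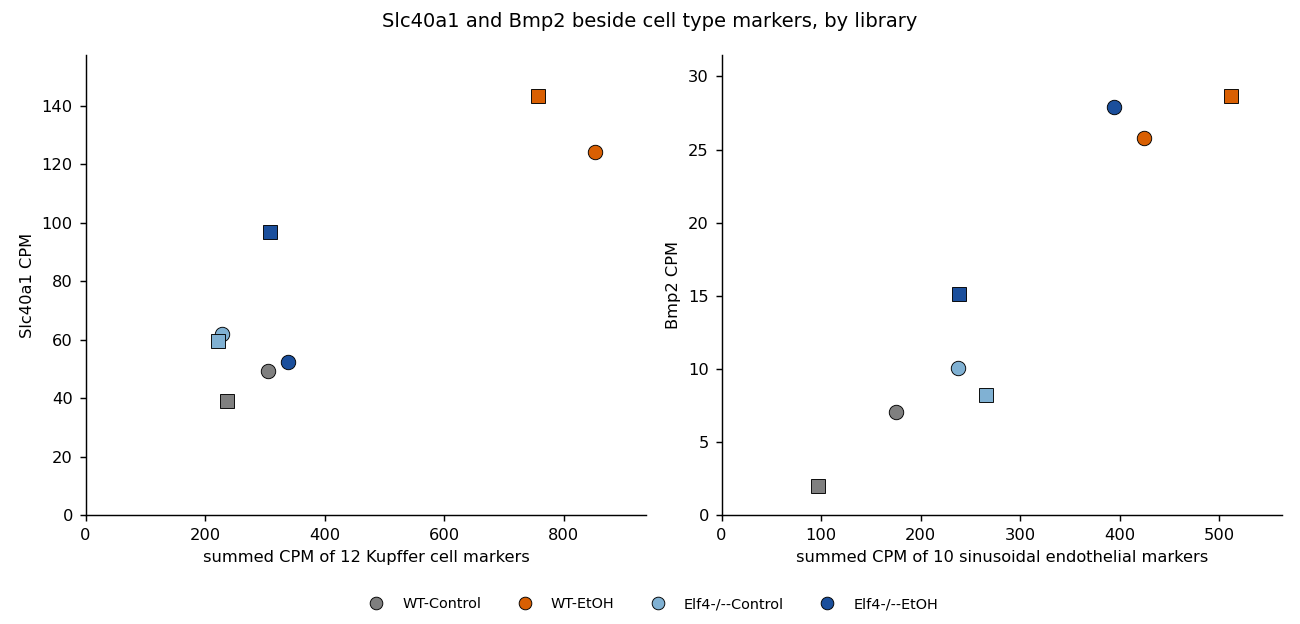
*Slc40a1* against the summed level of 12 Kupffer cell markers (left) and *Bmp2* against that of 10 sinusoidal endothelial markers (right), in CPM on linear axes from 0, with circles for replicate 1, squares for replicate 2 and colours for the 4 groups. Both WT-EtOH libraries had the highest *Slc40a1* and the highest Kupffer marker sums (756 to 853 CPM).

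*Slc39a14* (chromosome 14, 70303469 to 70351425, minus strand) encodes ZIP14, which brings iron not bound to transferrin, zinc and manganese into hepatocytes. It stood at 305 and 292 CPM in WT-Control against 208 and 159 in WT-EtOH, and at 258 and 299 in *Elf4*-/--Control against 344 and 177 in *Elf4*-/--EtOH. WT-EtOH was below WT-Control without overlap, whereas *Elf4*-/--EtOH held both a high and a low library. The change was −0.70 ± 0.31 in WT (edgeR, adjusted p = 0.126) and −0.10 ± 0.30 in *Elf4*-/- (edgeR, adjusted p = 0.885). The value in WT passed without either *Elf4*-/--EtOH library (−0.70 and −0.71) and on the 4 libraries compared, with adjusted p values from 0.0248 to 0.487 over all alternatives. The value in *Elf4*-/- turned from −0.65 when *Elf4*-/--EtOH replicate 1 was left out to 0.28 when replicate 2 was.

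*Mt1* (chromosome 8, 94179082 to 94180327, plus strand) and *Mt2* (chromosome 8, 94172664 to 94173568, plus strand) encode metallothioneins, small proteins rich in cysteine that bind zinc and copper, and lie 5513 bases apart. *Mt1* stood at 54.8 and 42.3 CPM in WT-Control against 129 and 76.0 in WT-EtOH, and at 11.9 and 33.7 in *Elf4*-/--Control against 1059 and 7.56 in *Elf4*-/--EtOH. *Mt2* stood at 34.3 and 14.9 CPM in WT-Control against 43.2 and 17.02 in WT-EtOH, and at 2.26 and 8.65 in *Elf4*-/--Control against 702 and 1.46 in *Elf4*-/--EtOH. For both genes the highest and the lowest of all 8 libraries were the 2 replicates of *Elf4*-/--EtOH, and so that group overlapped every other one.

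The *Elf4*-/--EtOH replicates differed 140.0-fold in the CPM of *Mt1* (6644 against 57 counts) and 481-fold in that of *Mt2* (4401 against 11 counts), and 0.0426% and 0.0106% of 9398 genes reached such gaps in log2 CPM. The log2 fold change with alcohol in *Elf4*-/- was 4.56 ± 1.48 for *Mt1* (edgeR, adjusted p = 0.118) and 6.06 ± 1.84 for *Mt2* (edgeR, adjusted p = 0.0998). Without *Elf4*-/--EtOH replicate 1 the values turned to −1.57 and −1.81, not past the threshold, and without replicate 2 they were 5.54 and 7.06 and passed, so that the direction rested on which library was kept. DESeq2 called *Mt2* but not *Mt1*. Over all alternatives the adjusted p ran from 8.2e-05 to 0.415 for *Mt1* and from 0.000135 to 0.415 for *Mt2*. Averaged over genotypes the changes were 2.82 ± 0.97 and 3.17 ± 1.15 (edgeR, adjusted p = 0.0539 and 0.0646), and they too turned below 0 without replicate 1, at −0.24 and −0.76. The genotype difference under EtOH behaved alike, at 2.38 ± 1.33 for *Mt1* and 3.55 ± 1.59 for *Mt2* with all libraries, −3.75 and −4.34 without replicate 1, and 3.36 and 4.54 without replicate 2. The value of −3.75 for *Mt1* passed the threshold in one direction and that of 3.36 in the other, with adjusted p values from 0.00411 to 0.953 over all alternatives.

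In WT, where the replicates were closer, *Mt1* changed by 1.08 ± 1.30 (edgeR, adjusted p = 0.584) and *Mt2* by 0.29 ± 1.5 (edgeR, adjusted p = 0.909) with alcohol. These errors come from the fit of all 8 libraries, the divergent *Elf4*-/--EtOH replicates included. On the 4 WT libraries alone *Mt1* changed by 1.08 ± 0.27 and passed (edgeR, adjusted p = 0.0202), and over all alternatives its adjusted p ran from 0.0202 to 0.836. Under control diet *Mt1* and *Mt2* were lower in both *Elf4*-/- libraries than in both WT libraries, at −1.10 ± 1.33 and −2.22 ± 1.67 (edgeR, adjusted p = 0.917 and 0.842). *Mt1* had 1.51 to 5.27 counts per *Mt2* count, so that their proportion varied far less than their levels. The lowest ratio was in *Elf4*-/--EtOH replicate 1, where both were highest.

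*Mt2* shares 432 exon bases with *Gm45774*, an antisense gene. *Gm45774* had 281 and 123 counts in WT-Control against 733 and 293 in WT-EtOH, and 34 and 55 in *Elf4*-/--Control against 7334 and 27 in *Elf4*-/--EtOH, which was 0.948 to 2.46 times the *Mt2* count. As with *Hamp2*, the reads of the pair cannot be told apart. *Mt1* has no overlapping gene in the annotation, and it showed the same order of the *Elf4*-/--EtOH replicates.

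**Figure D4:**
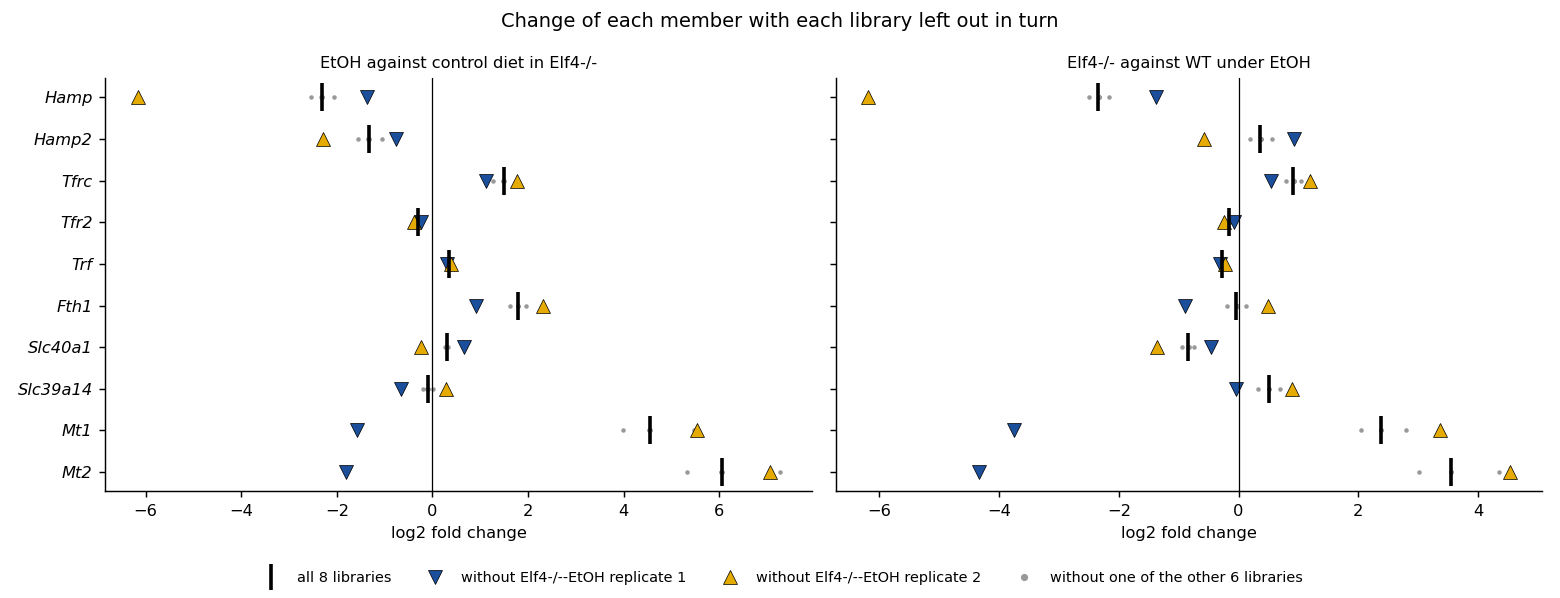
Log2 fold change of each member for EtOH against control diet in *Elf4*-/- (left) and *Elf4*-/- against WT under EtOH (right), with all 8 libraries (bars), without *Elf4*-/--EtOH replicate 1 (down triangles), without replicate 2 (up triangles) and without each other library (dots). *Mt1* and *Mt2* crossed 0 in both panels without replicate 1, and *Hamp* was lowest without replicate 2.

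Counted together, 2 of the 10 members rose and 0 fell with alcohol in WT, where 21.6% of all genes passed in either direction and 10.8% rose. Their median log2 fold change was 0.97 against 0.01 over all genes tested, and 9 of 10 had groups that did not overlap against 66.8% of all genes. With alcohol in *Elf4*-/- 1 member rose and 0 fell, against 2.89% of all genes called and 1.71% that rose, the members' median was 0.32 against 0.01, and 6 of 10 did not overlap against 52.2%. Averaged over genotypes 3 members rose and 0 fell, against 28.0% of all genes called. The members' share of calls was thus close to that of all genes in WT and averaged over genotypes.

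Between genotypes edgeR called 0 members under EtOH, where it called 0.143% of all genes, and DESeq2 also called 0. At an unadjusted p under 0.05 the members were *Tfrc*, *Slc40a1* and *Mt2*, or 3 of 10 against 10.5% of all genes, and 5 of 10 did not overlap against 41.3%. Under control diet edgeR called 0 members and 0.0143% of all genes, 1 member passed unadjusted against 7.31% of all genes (*Hamp2*, which DESeq2 called), and 6 of 10 did not overlap against 38.5%. The interaction gave 0 member calls and 0.0% of all genes in edgeR. At an unadjusted p it gave 3 (*Hamp2*, *Slc40a1* and *Mt2*) against 10.1% of all genes, and DESeq2 called *Hamp2*. Contrasts that share a group are not independent of each other.

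**Figure D5:**
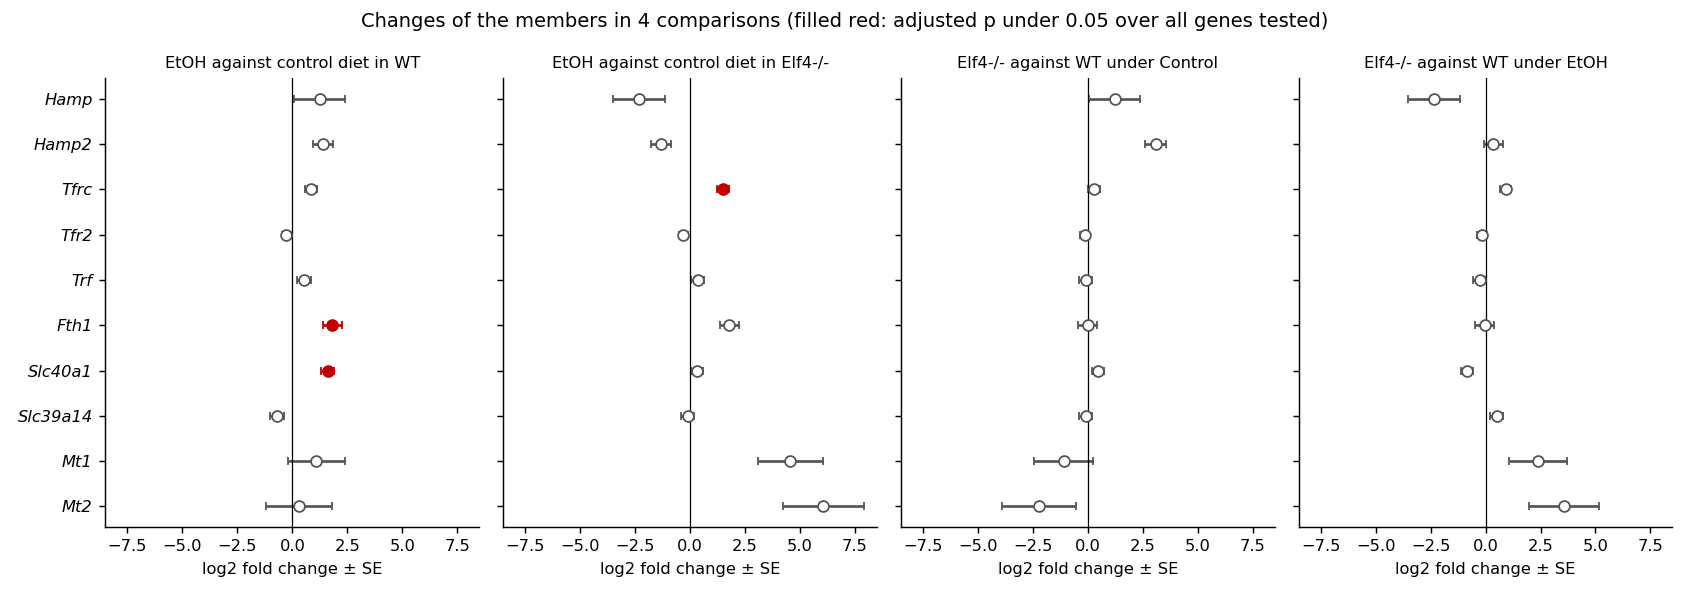
Log2 fold change ± SE of the 10 members for EtOH against control diet in each genotype and for *Elf4*-/- against WT under each diet, with filled red points where the adjusted p was under 0.05. *Fth1* and *Slc40a1* passed in WT and *Tfrc* in *Elf4*-/-, while *Mt1*, *Mt2* and *Hamp* had the widest errors.

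Per kilobase of the longest principal transcript, *Trf* had the highest level of the 10 genes in WT-Control (1543 CPM per kb), WT-EtOH (2221) and *Elf4*-/--EtOH (1839). *Hamp* was first in *Elf4*-/--Control, at 2000 CPM per kb against 1445 for *Trf*, with no overlap of the libraries. *Hamp* was second in both WT groups, where its libraries overlapped those of *Trf*, and stood at rank 5 in *Elf4*-/--EtOH (402 CPM per kb). *Fth1* moved between 398 and 1412 CPM per kb and stood at ranks 2 to 4. *Tfrc* was last in all 4 groups, at 3.35 to 11.4 CPM per kb. With lengths over all annotated exons *Hamp* came before *Trf* in WT-EtOH too, and *Tfrc* was at rank 9 in *Elf4*-/--EtOH. In *Elf4*-/--EtOH the libraries of neighbours in this order overlapped from *Trf* down to *Hamp2*.

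Regulators of hepcidin were followed as a list of 21 genes, of which 4 rose and 2 fell with alcohol in WT, with a median change of −0.08, where 21.6% of all genes were called and 10.8% rose. *Bmp2*, a BMP made by sinusoidal endothelial cells that induces hepcidin, rose from 7.09 and 2.02 CPM to 25.8 and 28.6 (2.58 ± 0.47). *Bmpr2*, a BMP receptor, rose by 0.81, *Il6st*, the signalling chain of the interleukin 6 receptor, by 0.87, and *Hfe*, which acts with *Tfr2*, by 0.60. *Hjv*, the BMP coreceptor hemojuvelin, fell from 242 and 196 CPM to 90.3 and 103 (−1.18 ± 0.25), and *Furin*, a protease that cleaves hemojuvelin, fell by 1.09 on the log2 scale. All 6 calls are from edgeR with adjusted p values of 0.00578 to 0.049. *Bmp6*, the iron-induced BMP, changed by −0.35 ± 0.46 and *Tmprss6*, the protease that represses hepcidin, by −0.05 ± 0.23, neither past the threshold, and both values were above 0 with scaling by library totals alone (0.09 and 0.38).

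In *Elf4*-/- edgeR called 0 of the 21 regulators, against 2.89% of all genes, and 3 passed at an unadjusted p. *Hjv* stood at 159.5 and 134 CPM in *Elf4*-/--Control against 239 and 158 in *Elf4*-/--EtOH (0.43 ± 0.25), and *Bmp2* at 10.04 and 8.20 against 27.9 and 15.1. The interaction of *Hjv* was 1.61 ± 0.35 and did not pass in edgeR (unadjusted p = 0.00105, adjusted p = 0.23) but passed in DESeq2 (adjusted p = 0.00724) and in edgeR without *Elf4*-/--EtOH replicate 2 (1.87), with adjusted p values of 0.00724 to 0.829 and changes of 1.12 to 1.87 over all alternatives. Markers of sinusoidal endothelial cells rose in WT as *Bmp2* did: 9 of 10 rose with alcohol in WT and 0 in *Elf4*-/-, against 10.8% and 1.71% of all genes. In *Elf4*-/- 3 of the 10 passed at an unadjusted p. The summed level of the 10 markers was 96.6 to 175 CPM in WT-Control against 425 to 512 in WT-EtOH, and 237 to 266 CPM in *Elf4*-/--Control against 239 to 394 in *Elf4*-/--EtOH. In *Elf4*-/- the sums of the 2 diets thus overlapped, while *Bmp2* did not. Under control diet 10 of the 10 markers were higher in *Elf4*-/- than in WT, with a median of 1.01, and *Bmp2* differed by 1.01 ± 0.48. There 7 of the 10 passed at an unadjusted p, against 7.31% of all genes. None of the markers was at 0 in any library, and their part in the *Bmp2* result was not tested.

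Of 7 genes that BMP and SMAD signals induce, 1 rose with alcohol in WT and 0 in *Elf4*-/-, against 10.8% and 1.71% of all genes. In *Elf4*-/- 1 of the 7 passed at an unadjusted p. The median of the 7 was 1.29 in WT and 0.11 in *Elf4*-/-. *Id1* was at 13.6 and 2.02 CPM in WT-Control against 23.0 and 20.5 in WT-EtOH (1.48 ± 0.57, edgeR, adjusted p = 0.0903). *Smad7*, the inhibitory SMAD, changed by 1.29 ± 0.52 (edgeR, adjusted p = 0.101) and *Atoh8* by 0.07 ± 0.36 in WT. In *Elf4*-/- 6 of the 7 had a change above 0, *Id1* among them (0.47 ± 0.55). *Atoh8* was the exception and changed by −1.29 ± 0.39 (edgeR, adjusted p = 0.0998). Its lowest library was *Elf4*-/--EtOH replicate 1 (4.78 CPM), which was also the lowest in *Hamp*.

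Of 20 other genes of iron handling, 19 were tested, and 1 rose and 1 fell with alcohol in WT, where 21.6% of all genes were called. *Slc39a8*, which encodes the metal importer ZIP8, rose by 1.03 ± 0.30, and *Cp*, the ferroxidase ceruloplasmin, fell by 1.15 on the log2 scale (SE 0.31). *Ftl1*, the light chain of ferritin, stood at 2581 and 2621 CPM in WT-Control against 4700 and 5325 in WT-EtOH, and at 2382 and 2988 in *Elf4*-/--Control against 6066 and 3439 in *Elf4*-/--EtOH, with all EtOH libraries above all Control libraries. Averaged over genotypes it rose by 0.89 ± 0.23 (edgeR, adjusted p = 0.0204), as did *Pcbp1*, an iron chaperone that loads ferritin, by 0.58 ± 0.15. EdgeR called 0 of the 19 in *Elf4*-/-, against 2.89% of all genes. At an unadjusted p 6 passed, a count without a share over all genes beside it. *Fth1* had 0.177 to 0.281 counts per *Ftl1* count in the 4 Control libraries and 0.327 to 0.493 in the 4 EtOH libraries, without overlap.

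Of 13 genes of heme handling, 6 rose and 0 fell with alcohol in WT, against 10.8% of all genes that rose, with a median change of 0.58. *Hmox1*, the heme oxygenase that frees iron from heme, stood at 8.02 and 7.36 CPM in WT-Control against 39.1 and 41.5 in WT-EtOH, and at 7.69 and 8.65 in *Elf4*-/--Control against 50.4 and 11.1 in *Elf4*-/--EtOH. It rose by 2.39 ± 0.55 in WT (edgeR, adjusted p = 0.0152), and its value of 1.91 ± 0.53 in *Elf4*-/- did not pass (edgeR, adjusted p = 0.0833) and was 0.45 without *Elf4*-/--EtOH replicate 1. *Blvrb*, which reduces biliverdin, rose in WT by 2.33 ± 0.26 and in *Elf4*-/- by 1.65 ± 0.25 (edgeR, adjusted p = 0.00139 and 0.0162), and it was the 1 heme gene called in *Elf4*-/-. *Alas1*, the first enzyme of heme synthesis, rose by 2.61 ± 0.70 in WT, *Slc48a1*, a heme transporter of lysosomes, by 1.97 ± 0.40, *Cd163*, the haemoglobin scavenger receptor of macrophages, by 1.67 ± 0.48, and *Bach1*, a repressor of *Hmox1*, by 0.58 ± 0.18. *Cd163* moved with the Kupffer cell markers given above. Red blood cell markers, 6 of 8 of which were in the table, summed to 130 to 185 CPM in WT-Control against 90.2 to 108 in WT-EtOH. The sums were 87.7 to 230 CPM in *Elf4*-/--Control against 96.2 to 118 in *Elf4*-/--EtOH. Of the 5 tested, 2 fell with alcohol in WT and 0 in *Elf4*-/-, where 21.6% and 2.89% of all genes were called in either direction. Their median changes were −0.94 and −0.62.

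Of 16 genes of the zinc and metallothionein system, 12 were tested. With alcohol in WT 1 rose and 2 fell, where 21.6% of all genes were called. *Slc39a4*, the zinc importer ZIP4, rose in WT by 0.92 ± 0.21 and in *Elf4*-/- by 1.03 ± 0.21 (edgeR, adjusted p = 0.0147 and 0.0358). *Slc30a10*, a manganese exporter, and *Slc39a13*, the zinc transporter ZIP13, fell in WT, by 1.28 and 0.80 on the log2 scale, and *Slc30a9* fell by 0.45 averaged over genotypes. *Mtf1*, which encodes the factor that binds metal response elements, stood between 16.7 and 25.1 CPM in all libraries and changed by 0.09 ± 0.24 in WT and 0.12 ± 0.24 in *Elf4*-/-. *Slc30a1*, a zinc exporter that MTF1 induces, stood at 21.0 and 23.4 CPM in *Elf4*-/--EtOH, the group in which *Mt1* and *Mt2* differed most between replicates.

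Other signals that act on hepcidin or on metallothioneins were counted from 2 further lists. Of 16 acute phase genes, 2 fell with alcohol in WT (*Apcs* by 1.27 and *Saa4* by 1.33 on the log2 scale) and 0 rose, where 21.6% of all genes were called. In *Elf4*-/- edgeR called 0 of the 16, against 2.89% of all genes, while 4 passed at an unadjusted p. Averaged over genotypes 3 rose and 1 fell, against 28.0% of all genes called. Among them *Crp*, C-reactive protein, rose by 0.87 ± 0.20 (edgeR, adjusted p = 0.0108). *Crp* stood at 92.1 and 130 CPM in WT-Control against 228 and 151 in WT-EtOH, and at 96.0 and 124 in *Elf4*-/--Control against 244 and 188 in *Elf4*-/--EtOH. Of 10 glucocorticoid-induced genes, 1 rose and 1 fell with alcohol in WT, where 21.6% of all genes were called. *Sgk1*, a kinase, rose by 1.58 ± 0.46 and *Pck1*, the gluconeogenic enzyme, fell by 1.74 on the log2 scale. In *Elf4*-/- edgeR called 0 of the 10, against 2.89% of all genes, while 2 passed at an unadjusted p. *Sgk1* stood at 45.4 CPM in *Elf4*-/--EtOH replicate 1 and 15.1 in replicate 2, and *Pck1* at 3449 and 1502. The median level of the 10 genes was 101 and 40.7 CPM in these libraries. For *Elf4*-/- against WT under EtOH, 10 of the 10 changes were above 0, with a median of 0.79. There 2 passed at an unadjusted p, against 10.5% of all genes. Between genotypes edgeR called 0 genes of these 7 lists under either diet, where DESeq2 called 2 under EtOH and 4 under control diet. Among these 7 lists, the highest count at an unadjusted p was that of acute phase genes under control diet. There 9 of 16 passed against 7.31% of all genes, and the median of *Elf4*-/- against WT was −0.91.

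Most calls of these pathway genes rested on all libraries being used. DESeq2 called 8 of them in *Elf4*-/-, where edgeR called 2. In WT 22 genes of the 7 lists were called by edgeR, and 2 to 34 were with 1 library left out, fewest without WT-EtOH replicate 2 and most without *Elf4*-/--EtOH replicate 2. Of the 21 calls in WT that were open to naming, those of *Bmp2* and *Blvrb* held with each library left out. Averaged over genotypes the calls of *Bmp2*, *Furin*, *Slc39a8*, *Hmox1*, *Blvrb*, *Slc48a1* and *Slc39a4* held with each library left out. The calls of *Blvrb* and *Slc39a4* in *Elf4*-/- did not, and were both lost without either *Elf4*-/--Control library.

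Over the 8 libraries, the genes whose log2 CPM was most like that of *Hamp* among 9397 genes were *Vps37a* (Pearson r = 0.924), *Tmem268* (0.923) and *Fxr1* (0.922). For *Mt1* they were *Mt2* (0.986), *Gm45774* (0.978) and *Pxmp4* (0.974). Some of these genes moved far less: *Vps37a* ran from 33.8 to 58.2 CPM, *Fxr1* from 34.1 to 56.2 and *Tmem268* from 2.71 to 12.5, against 11.5 to 955 for *Hamp*. *Pxmp4* ran from 78.3 to 137 CPM, against 7.56 to 1059 for *Mt1*. The correlations describe 8 libraries of 4 groups, and the libraries at the ends of the *Hamp* and *Mt1* ranges weigh most in them.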

How the data were processed

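RNA sequencing covered total RNA of liver, with 8 libraries. The authors mapped reads to mm10 with HISAT2, sorted them with SAMtools and deposited counts per gene from HTSeq, in whole numbers and not normalized, and they used DESeq2 for their own tests. Versions, annotation, strand and the handling of reads with several matches are not given in the sources used here. All 8 columns were matched to samples by name.

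Genes were filtered with filterByExpr by group (13993 of 19267 kept) and scaled with TMM in edgeR 4.0.16 (R 4.3.3, limma 3.58.1). A model of 4 groups over all 8 libraries gave 6 contrasts: alcohol against control diet in WT, in *Elf4*-/- and averaged over both, genotype under each diet, and their interaction. The quasi-likelihood test with Benjamini-Hochberg adjustment and a threshold of 0.05 was used. The scripts were tested on simulated data. DESeq2 1.42.0 was an alternative. Replicates within every group differed by more than counting noise, with a chi-square per degree of freedom of 11.2 to 48.4.

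The 10 members and all lists were chosen with earlier results of these data known. Besides the members, up to 6 called genes of each of 7 pathway lists were named per contrast, those of largest change whose mean reached 50 counts and whose groups did not overlap, along with *Hjv*, *Bmp6*, *Tmprss6*, *Id1*, *Smad7*, *Atoh8*, *Hmox1*, *Ftl1*, *Mtf1*, *Slc30a1*, *Elf4* and the 3 genes most like *Hamp* and *Mt1*. There were 6 marker lists. Coordinates, transcript lengths and hairpins are from GENCODE M21 on GRCm38, the assembly of mm10, where 97.3% of symbols matched, and promoters are from RefSeq on GRCm38.p6.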

Additional observations from a re-analysis of the deposited data

How the results depend on the processing

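Alternatives were DESeq2, DESeq2 size factors in edgeR, scaling by library totals, no filter, a minimum mean of 50 counts, a fit of only the 4 libraries compared, which gives no average or interaction, a replicate block, each library left out, and robust edgeR, which was chosen after seeing the data. *Tfrc*, *Fth1* and *Slc40a1* were called in every alternative to the diet effect averaged over genotypes. Robust edgeR and DESeq2 size factors moved no count of genes, members or pathway genes by over 1.5 times. With 2 libraries a group, a left-out fit takes its lone library to vary like the other groups. The causes of the changes below were not tested.

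Deviations of same-numbered libraries correlated from −0.134 to 0.114 between groups. These values showed no sign of pairing by replicate number but cannot exclude it, since each group gave a single difference between replicates. According to the methods of the study the mice were pair-fed, and the labels do not say which libraries belong to such pairs. A replicate block left all calls of members as they were, with 2 in WT, 1 in *Elf4*-/- and 3 averaged, moved the genes called from 404 to 240 for diet in *Elf4*-/- and from 20 to 10 for genotype under EtOH, and left 1 of 2 pathway genes called in *Elf4*-/-.

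DESeq2 called 811 genes for diet in *Elf4*-/-, 180 for genotype under EtOH, 79 for genotype under control diet (2 in edgeR) and 111 for the interaction (0 in edgeR). It called 4 members for diet in *Elf4*-/-, 1 for genotype under control diet and 1 for the interaction, and 8, 2, 4 and 2 pathway genes in *Elf4*-/-, under EtOH, under control diet and for the interaction. Without a filter, 50 genes were called for genotype under EtOH, 14 under control diet and 7 for the interaction, with 4 members in WT, 2 in *Elf4*-/-, 5 averaged and 1 under control diet, and 5 pathway genes in *Elf4*-/- and 1 under control diet. With the minimum mean, 13 genes were called for genotype under EtOH and 0 under control diet. On the 4 libraries compared, 40 genes were called for diet in *Elf4*-/-, 0 for genotype under EtOH and 22 under control diet, with 6 members in WT, 0 in *Elf4*-/- and 1 under control diet, and 0 and 4 pathway genes in *Elf4*-/- and under control diet. Library totals gave 5 genes for genotype under control diet, 5 members in WT and 6 averaged, and moved the share of higher calls in WT from 50.2% to 84.4% and averaged from 50.5% to 73.8%.

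With library totals the sign turned for diet in WT in *Tfr2* (0.15), *Bmp6* (0.09) and *Tmprss6* (0.38, and 0.04 averaged), and for genotype under control diet in *Tfr2* (0.09), *Trf* (0.13), *Fth1* (0.21) and *Slc39a14* (0.13). *Fth1* for genotype under control diet was 0.03 without a filter, 0.01 with the minimum mean of 50 counts and 0.002 on the 4 libraries compared.

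With 1 library left out, genes called ranged from 626 to 4023 for diet in WT, 9 to 1683 in *Elf4*-/-, 2115 to 4697 averaged, 0 to 366 for genotype under EtOH, 0 to 53 under control diet and 0 to 139 for the interaction. Members called ranged from 1 to 5, 0 to 6, 3 to 6, 0 to 5, 0 to 1 and 0 to 5 in that order, and pathway genes from 2 to 34, 0 to 18, 11 to 31, 0 to 8, 0 to 4 and 0 to 3. Signs turned in these log2 fold changes. For diet in WT, *Mt2* ran from −0.54 to 1.01, *Bmp6* from −0.91 to 0.56, *Tmprss6* from −0.14 to 0.02 and *Atoh8* from −0.23 to 0.45. For diet in *Elf4*-/-, *Slc40a1* ran from −0.24 to 0.67, *Slc39a14* from −0.65 to 0.28, *Mt1* from −1.57 to 5.54, *Mt2* from −1.81 to 7.27, *Smad7* from −1.21 to 0.72 and *Mtf1* from −0.22 to 0.38. Averaged, *Hamp* ran from −2.48 to 0.65, *Hamp2* from −0.46 to 0.31, *Mt1* from −0.24 to 3.3, *Mt2* from −0.76 to 3.78 and *Mtf1* from −0.07 to 0.24. For genotype under EtOH, *Hamp2* ran from −0.58 to 0.93, *Fth1* from −0.9 to 0.5, *Slc39a14* from −0.04 to 0.9, *Mt1* from −3.75 to 3.36 and *Mt2* from −4.34 to 4.54. Under control diet, *Tfrc* ran from −0.004 to 0.5, *Trf* from −0.36 to 0.24, *Fth1* from −0.3 to 0.39 and *Slc39a14* from −0.21 to 0.01. For the interaction, *Tfr2* ran from −0.11 to 0.07, *Trf* from −0.51 to 0.09, *Fth1* from −0.9 to 0.49, *Mt1* from −2.64 to 4.47 and *Mt2* from −2.1 to 6.98.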
